A study of Mus musculus with 12 samples.

Results

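The 10 potassium channel genes described are the pore subunits of the inward rectifier (Kcnj2, Kcnj3, Kcnj5, Kcnj11, Kcnj12), two-pore (Kcnk1, Kcnk3) and small-conductance calcium-activated, or SK, families (Kcnn1, Kcnn2, Kcnn3). They were taken by symbol from the gene table of a mouse model of myotonic dystrophy type 1 (DM1), and all 10 were found among its 51826 entries, each once. Both heart chambers were sequenced from the CUG960 +dox mice V119, V120 and V123 and from the MHCrtTA +dox controls V327, V333 and V334, which gives 12 libraries of 4 groups with n = 3 in each. All mice were FvB females, aged 10 weeks, that received doxycycline (dox) chow from postnatal day 1 (PN1). CUG960 mice carried TREDT960I(H) and MHCrtTA(hemi), and controls carried MHCrtTA(hemi) alone, so dox and rtTA were shared by both genotypes. The rtTA was driven by an α myosin heavy chain promoter, which restricts induction of the RNA with 960 CUG repeats to cardiomyocytes, whereas the RNA sequenced came from whole chambers with all their cell types.

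Inward rectifiers and two-pore channels hold the resting membrane potential of cardiomyocytes near the potassium equilibrium and shape late repolarization. The Kir3 channels (GIRK), a tetramer of Kcnj3 and Kcnj5 products, open when acetylcholine or adenosine releases G protein βγ subunits, which slows the sinus node and shortens the atrial action potential. Kir6 channels couple repolarization to the ATP level, and SK channels carry calmodulin and open with cytosolic calcium, with effects best described in atria. Each library held between 116127966 and 160676189 counts. The labelled tissue was borne out by chamber markers, since 8 atrial cardiomyocyte markers summed to 26580 to 29190 CPM (counts scaled to library size) in control atria and 121.8 to 195.2 CPM in control ventricles. The 5 ventricular markers summed to 14970 to 18940 CPM in control ventricles and to 1052 to 1160 CPM in control atria, where Irx4 was under 0.1 CPM. Nearly all of the atrial sum was Myh7, with 1030 to 1104 CPM in control atria and 1156 to 1549 CPM in control ventricles. Myl2 was 8.82 to 33.5 CPM and Myl3 6.09 to 20.7 CPM in control atria. In bulk tissue, fewer cells of a type and less RNA per cell cannot be told apart.

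Levels of different genes were compared per length, as CPM per kilobase of merged exons (mean ± SD, n = 3). In control atria, Kcnj5 was highest with 93.5 ± 3.2 CPM per kb, followed by Kcnj3 with 69.0 ± 5.7, Kcnk3 with 64.2 ± 2.6, Kcnj11 with 35.7 ± 1.1, Kcnj12 with 13.7 ± 1.6 and Kcnj2 with 8.37 ± 0.91 CPM per kb. The SK genes were lower, at 2.44 ± 0.072 for Kcnn1, 0.807 ± 0.0086 for Kcnn2 and 0.154 ± 0.024 CPM per kb for Kcnn3, and Kcnk1 was lowest at 0.0343 ± 0.026. Of these neighbours in rank, only Kcnj3 and Kcnk3 had overlapping ranges over the 3 mice. In control ventricles, Kcnk3 led with 59.6 ± 0.35 CPM per kb and was followed by Kcnj11 with 35.5 ± 1.5 and Kcnj5 with 17.2 ± 1.9. Kcnj12, Kcnj2 and Kcnj3 lay together at 11.9 ± 1.2, 10.5 ± 2.6 and 10.4 ± 0.98 CPM per kb, and each overlapped with its neighbour in rank. Kcnn1, Kcnn2, Kcnn3 and Kcnk1 filled the lowest ranks again, at 2.81 ± 0.060, 0.654 ± 0.17, 0.299 ± 0.077 and 0.0845 ± 0.046 CPM per kb. CUG960 atria kept the order of control atria. In CUG960 ventricles, Kcnj3 (9.50 ± 0.73 CPM per kb) ranked above Kcnj2 (7.43 ± 0.66), and Kcnk1 (0.489 ± 0.14) above Kcnn3 (0.318 ± 0.068), with overlapping ranges for the latter pair.

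**Figure D1:**
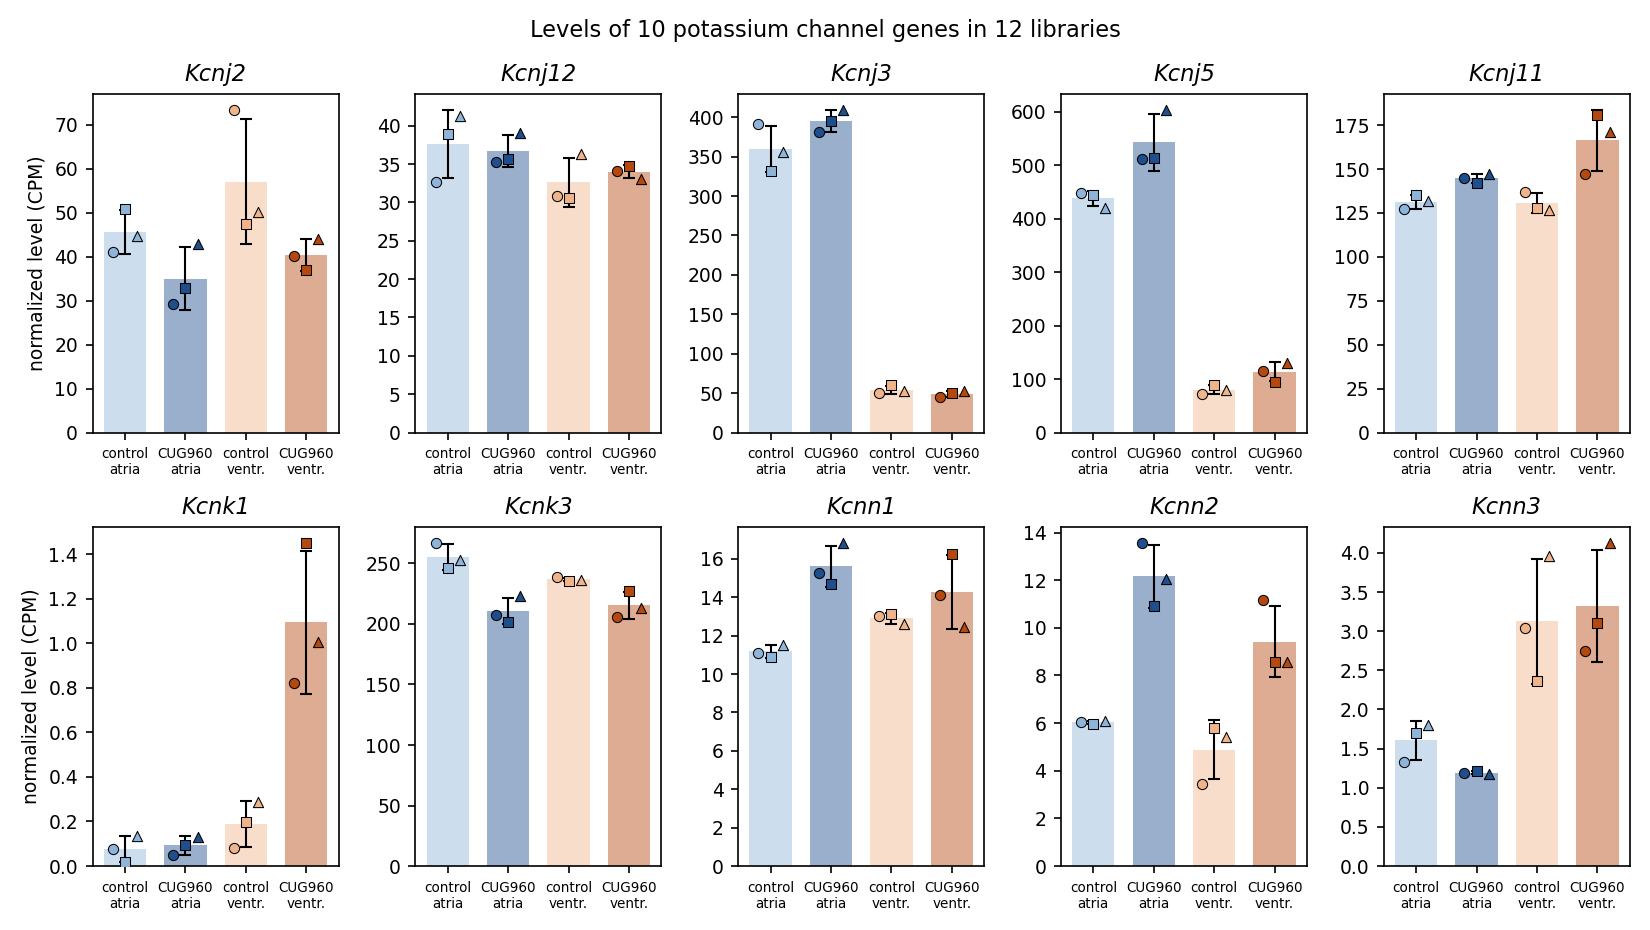
Level of each of the 10 genes in CPM (y axis, linear and starting at 0) in the 4 groups (x axis); points are single mice, marked by shape within a genotype, bars are means and error bars SD (n = 3). Kcnj3 and Kcnj5 stand high in atria of both genotypes, Kcnn2 is higher in CUG960 than in control mice in both chambers, and Kcnk1 exceeds 0.8 CPM only in the 3 CUG960 ventricles.

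Differences between genotypes were tested within each chamber, to ask which channel transcripts change with CUG repeat RNA, using edgeR's quasi-likelihood test. Calls required an adjusted P value under 0.05 together with a change of 1.5-fold or more. In atria, 1 of the 10 genes was called, Kcnn2, which rose, beside 5.49% of all 17650 genes tested. In ventricles, Kcnk1 and Kcnn2 were called, both higher in CUG960 mice, beside 4.75% of 16909 genes. Without the fold limit, atria had 3 that rose (Kcnj5, Kcnn1, Kcnn2) and 1 that fell (Kcnk3), beside 14.6% of all genes, and ventricles had 4 that rose (Kcnj5, Kcnj11, Kcnk1, Kcnn2) and none that fell, beside 9.94%. The median log2 fold change of the 10 was 0.14 in atria and 0.12 in ventricles, and that of all genes was −0.0088 and −0.0095. With so few members, these shares describe the 10 genes and set them apart from no background. Before adjustment, 5337 of 17650 genes in atria and 4342 of 16909 in ventricles were under 0.05, beside which such counts for other lists are to be read.

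**Figure D2:**
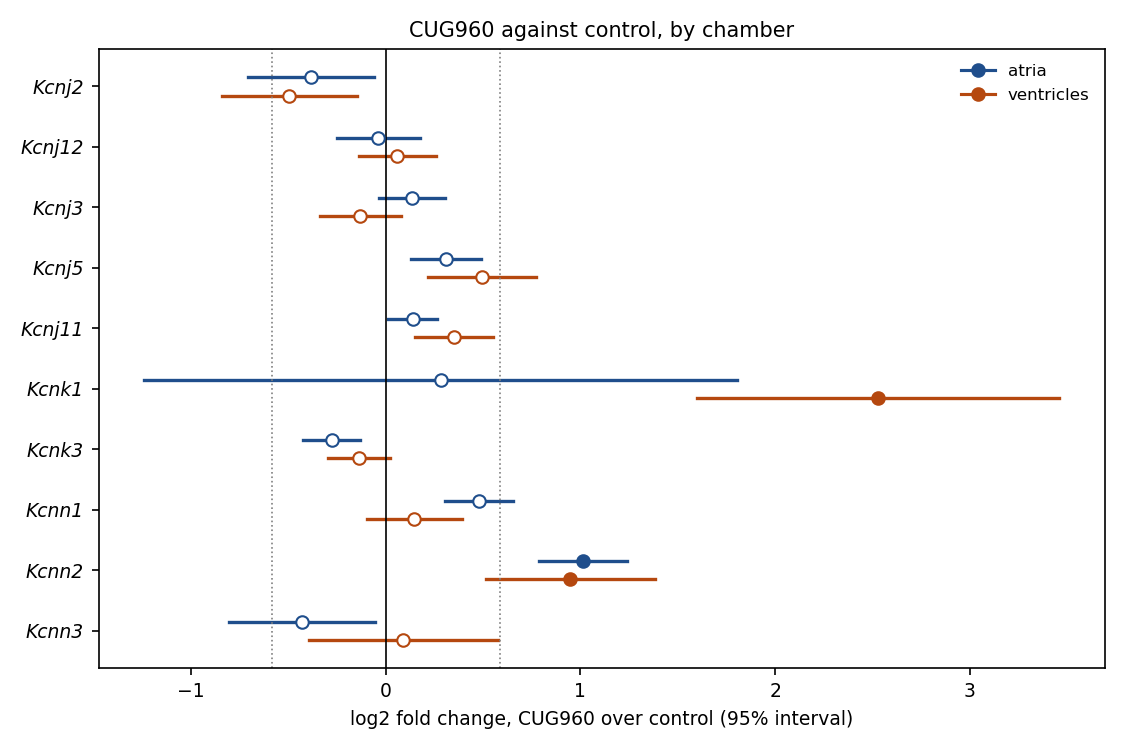
Log2 fold change of CUG960 over control (x axis) for each gene (y axis), in atria and in ventricles; lines are 95% intervals, filled points passed both thresholds, and dotted lines mark the fold limit of 1.5. Kcnn2 lies near 1 in both chambers, and the interval of Kcnk1 spans 1.6 to 3.46 in ventricles and includes 0 in atria.

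The chambers were compared in each genotype, to ask how far the atrial or ventricular pattern of these channels was kept in CUG960 hearts. In control hearts, Kcnj3 and Kcnj5 were higher in atria and Kcnn3 in ventricles, which makes 3 of 10 called, beside 34.9% of all genes, and Kcnn1 was the only other with an adjusted P value under 0.05, beside 55.7%. In CUG960 hearts, the same 3 genes were called together with Kcnk1, higher in ventricles, beside 33.6% of all genes, and Kcnn2 was added without the fold limit, beside 54.2%. The interaction of chamber and genotype, fitted over all 12 libraries, passed an adjusted P value of 0.05 for 0 of the 10 genes, beside 1.38% of all genes. Before adjustment, 3 of them were under 0.05, namely Kcnj3, Kcnk1 and Kcnn1, with adjusted P values of 0.395, 0.275 and 0.318 by edgeR, beside 2253 of 18327 genes under 0.05 before adjustment. DESeq2 called 0 of the 10.

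**Figure D3:**
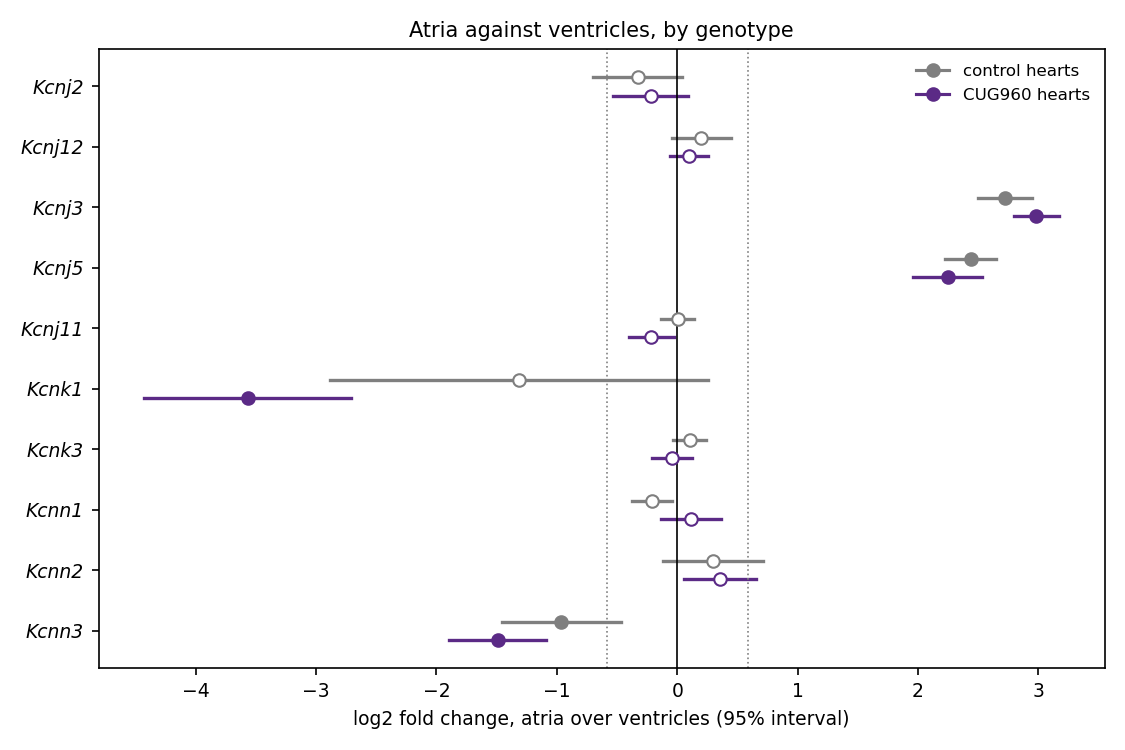
Log2 fold change of atria over ventricles (x axis) for each gene (y axis), in control and in CUG960 hearts; lines are 95% intervals, filled points passed both thresholds, and dotted lines mark the fold limit of 1.5. Kcnj3 and Kcnj5 lie above 2 in both genotypes, and Kcnn3 lies below 0 in both.

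Scaling matters for the smaller of these chamber differences. Libraries were scaled by TMM, under which the median log2 fold change of all genes was 0.033 in control and 0.0090 in CUG960 hearts, and 52.4% and 51.2% of called genes were higher in atria. With raw library totals, the medians were 0.49 and 0.40, and 82.7% and 79.7% of called genes were higher in atria. Under raw totals, Kcnj2 changed from the ventricular to the atrial side in both genotypes, Kcnn1 in control hearts, and Kcnj11 and Kcnk3 in CUG960 hearts, while Kcnn3 in control hearts kept its direction but lost its call (−0.51, adjusted P = 0.0778). Kcnn2 was then called as higher in atria in both genotypes (0.75 in each), and Kcnj12 in control hearts (0.66). Kcnj3, Kcnj5 and Kcnk1 kept their directions under every scaling tried. In ventricles, the comparison of genotypes had 63.1% of called genes higher in CUG960 mice under TMM and 80.6% under raw totals, with a median over all genes of 0.098.

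The Kir3 subunit Kcnj3 lies at chr2:55435970-55598145 and its partner Kcnj5 at chr9:32314707-32344350 (GRCm38, GENCODE M21). A RefSeq promoter entry matched 7 of the 10 genes. Since Kcnj3 and Kcnj5 differed between chambers in the same direction, the bases from 250 to 11 before their RefSeq transcription starts are shown, 5′ to 3′ in the sense of each gene (RefSeq, GRCm38.p6). They lie at chr2:55435720-55435959 on the plus strand and chr9:32344355-32344594 on the minus strand. Capitals mark matches, on either strand, to a T-box motif (AGGTGT) or a GC box (GGGCGG).
Kcnj3: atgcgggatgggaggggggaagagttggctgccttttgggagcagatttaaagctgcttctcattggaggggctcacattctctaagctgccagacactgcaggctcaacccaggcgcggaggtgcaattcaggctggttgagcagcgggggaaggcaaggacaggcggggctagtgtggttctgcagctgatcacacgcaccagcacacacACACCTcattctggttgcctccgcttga
Kcnj5: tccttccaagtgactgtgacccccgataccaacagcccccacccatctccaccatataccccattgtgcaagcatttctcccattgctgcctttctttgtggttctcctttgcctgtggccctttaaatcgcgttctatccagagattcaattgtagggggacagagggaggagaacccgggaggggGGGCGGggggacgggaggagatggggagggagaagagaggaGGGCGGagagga
The Kcnj3 window held 1 T-box match, which starts 38 bases before the start site, and the Kcnj5 window held GC boxes at 63 and 22 bases. Of 32851 RefSeq promoter windows of 240 bases, 11.5% held the T-box letters and 31.3% the GC box. Neither window held a GATA motif (AGATAA, in 9.74% of all) or a TATA box (TATAAA, in 12.1%), and GC content was 58.3% for Kcnj3 and 57.5% for Kcnj5, against a median of 52.1%. A match of letters is a description only.

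Kcnj3 encodes Kir3.1, the subunit that needs a partner to reach the membrane. Its level was 391, 332 and 356 CPM in control atria (V327, V333, V334) and 381, 395 and 409.5 CPM in CUG960 atria (V119, V120, V123). In control ventricles it was 50.2, 60.1 and 52.6 CPM, and in CUG960 ventricles 45.7, 49.6 and 53.3 CPM. Atria lay above ventricles in every mouse, while the genotypes overlapped within each chamber. The chamber difference was a log2 fold change of 2.72 ± 0.097 (SE) in control hearts (adjusted P = 2.8e-07) and 2.98 ± 0.083 in CUG960 hearts (adjusted P = 2.8e-08). Between genotypes, log2 fold changes were 0.14 ± 0.073 in atria (adjusted P = 0.253) and −0.13 ± 0.093 in ventricles (adjusted P = 0.416), with 95% intervals of −0.032 to 0.302 and −0.340 to 0.076.

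Kcnj5 encodes Kir3.4, the subunit that also forms channels on its own. Control atria had 448, 444 and 421 CPM, and CUG960 atria 511, 513 and 604 CPM, without overlap. Control ventricles had 72.1, 89.9 and 79.6 CPM, and CUG960 ventricles 115, 95.1 and 130.5 CPM, again all above the controls. The log2 fold change of CUG960 over control was 0.31 ± 0.079 in atria (adjusted P = 0.0347) and 0.50 ± 0.12 in ventricles (adjusted P = 0.0361), under the fold limit in both. The adjusted P value in atria was 0.092 when all 12 libraries shared a single fit, and it ranged from 0.04 to 0.122 with each mouse left out. In ventricles that range was 0.022 to 0.122, with log2 fold changes of 0.38 to 0.61. Atria exceeded ventricles by 2.44 ± 0.092 in control (adjusted P = 3.8e-07) and 2.25 ± 0.13 in CUG960 hearts (adjusted P = 1.15e-06).

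Levels of atrial cardiomyocyte transcripts differed among the ventricle libraries. Myl7, an atrial myosin light chain, was 8.02, 4.98 and 19.3 CPM in control ventricles (V327, V333, V334) and 0.192, 0.304 and 55.9 CPM in CUG960 ventricles (V119, V120, V123), against a mean of 2841 CPM in control and 2910 CPM in CUG960 atria. Sln and Myl4 were likewise highest in V123, with 18.6 and 86.3 CPM, and next in V334, with 7.84 and 37.5 CPM. The other 5 atrial markers did not share this order. Bmp10 was 0.034 to 0.275 CPM in CUG960 and 2.39 to 3.75 CPM in control ventricles, Nppa was highest in V120 with 224.4 CPM, Nr2f1 was lowest in V123 with 1.46 CPM, Nr2f2 was 6.01 to 8.52 CPM and Tbx5 31.1 to 38.8 CPM over the 6 ventricles. The part of atrial RNA in the ventricular values of Kcnj3 and Kcnj5 was not tested. Of 8 atrial markers, none was at 0 in all libraries of a ventricle group, Nppa was the most abundant in each ventricle library, and the sum was 122, 125 and 195 CPM in control and 135, 278 and 354.5 CPM in CUG960 ventricles. Without V123 and V334, the ventricular log2 fold change of Kcnj5 was 0.37 with an adjusted P value of 0.156, that of Kcnj11 0.31 with 0.196, that of Kcnn2 1.09 with 0.0281 and that of Kcnk1 3.01 with 0.00727. This leaves 2 mice per group.

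The proportion of the Kir3 pair was compared next. The Kcnj3 to Kcnj5 ratio of levels per length was 0.739 ± 0.059 in control atria, 0.657 ± 0.043 in CUG960 atria, 0.607 ± 0.017 in control ventricles and 0.398 ± 0.061 in CUG960 ventricles (mean ± SD, n = 3). In ventricles, the Kcnj5 share of summed Kir3 transcript was 61.5%, 62.5% and 62.7% in controls and 73.6%, 68.1% and 73.2% in CUG960 mice. These do not overlap, but with 3 mice on each side an exact permutation test has a smallest possible p = 0.1, which was the value obtained (two-sided, adjusted P = 0.171 over 12 tests of sums and shares). In atria, the share was 57.6% ± 2.0 in control and 60.4% ± 1.6 in CUG960 mice (exact permutation p = 0.2). The summed Kir3 level was 162 ± 7.2 CPM per kb in control and 192 ± 14 CPM per kb in CUG960 atria, with no overlap (exact permutation p = 0.1), and 27.6 ± 2.9 and 33.7 ± 4.2 CPM per kb in ventricles, with overlap (exact permutation p = 0.2).

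**Figure D4:**
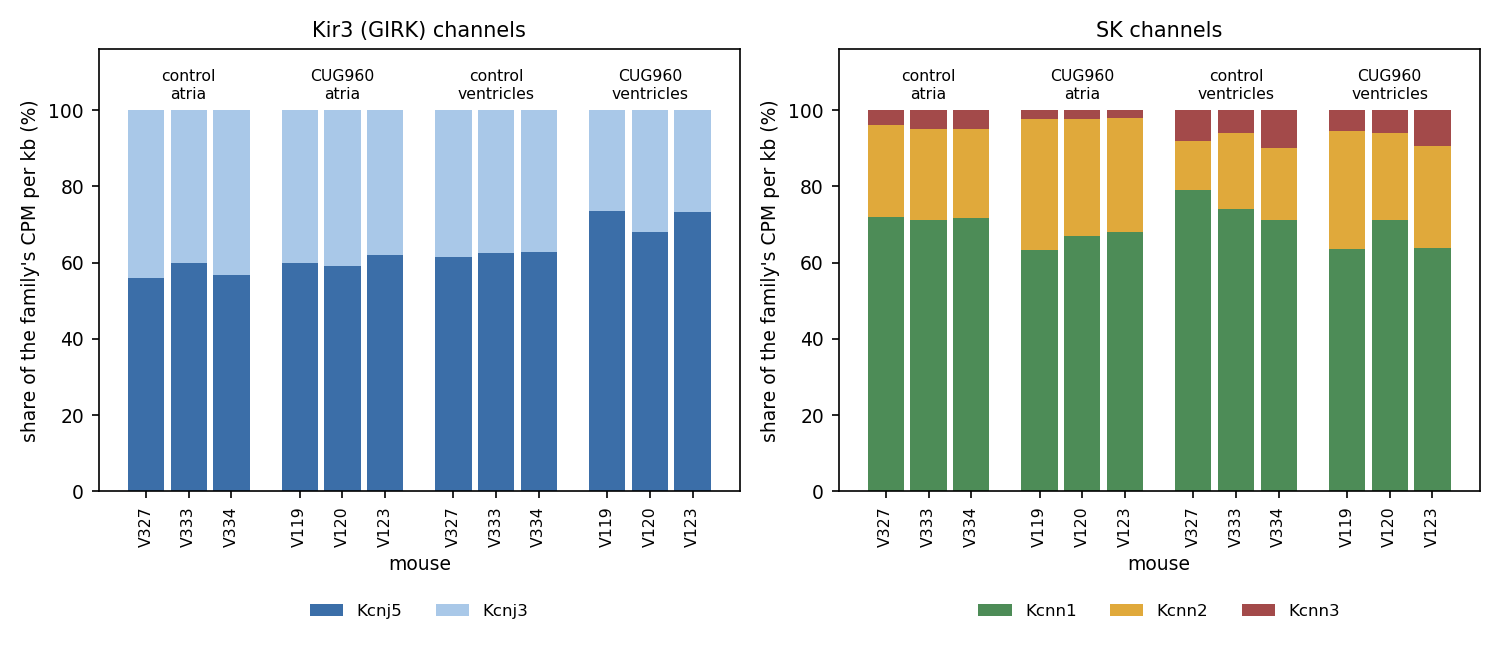
Share of each subunit gene in its family's summed level per length (y axis, percent of CPM per kb) in each library (x axis, by mouse and group), for the Kir3 pair and the SK genes. Kcnj5 makes up 68.1% to 73.6% of the pair in CUG960 ventricles and 61.5% to 62.7% in control ventricles, and the Kcnn2 band is wider in CUG960 mice in both chambers.

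The route from receptor to Kir3 channel was read in a list of 21 genes, of which 19 were tested in each chamber. In atria, 3 were called and all rose, namely Adora1, Gnai1 and Rgs6, and in ventricles 4 were called and all rose, namely Adora1, Gnb3, Gng7 and Rgs6. These are 15.8% and 21.1% of the list, beside 5.49% and 4.75% of all genes called in either direction, with list medians of −0.042 and 0.027 in log2 fold change. Gnai3 in atria (−0.27) and Rgs4 in ventricles (−0.55), named after their values were seen, fell without reaching the fold limit.

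Adora1, the adenosine A1 receptor, was 28.1 ± 4.2 CPM in control and 46.3 ± 6.2 CPM in CUG960 atria (log2 fold change 0.72 ± 0.13 SE, adjusted P = 0.00997), and 28.4 ± 1.5 against 55.5 ± 4.9 CPM in ventricles (0.97 ± 0.087, adjusted P = 2.63e-04). Rgs6, a GTPase-activating protein that ends Gαi/o signalling to these channels, was 49.2 ± 7.6 against 79.1 ± 5.4 CPM in atria (0.69 ± 0.11, adjusted P = 0.0064) and 18.9 ± 0.91 against 36.7 ± 1.4 CPM in ventricles (0.96 ± 0.079, adjusted P = 1.67e-04). Both genes had control and CUG960 ranges that did not overlap in either chamber. The muscarinic receptor gene Chrm2, for comparison, had a log2 fold change of −0.14 in atria (adjusted P = 0.322) and of 0.27 in ventricles (adjusted P = 0.098).

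Among G protein subunits, Gnai1, an inhibitory α subunit, was 5.91 ± 0.54 CPM in control and 10.8 ± 0.62 CPM in CUG960 atria (log2 fold change 0.87, adjusted P = 0.0014). In ventricles, Gnai1 was 3.84 ± 0.16 against 4.65 ± 0.61 CPM (0.28, adjusted P = 0.227). Gnb3, a β subunit, was 26.1 ± 1.6 against 43.6 ± 2.0 CPM in ventricles (0.74, adjusted P = 7.31e-04) but only 2.88 ± 0.37 against 3.18 ± 0.49 CPM in atria. Gng7, a γ subunit, was 5.30 ± 1.3 against 8.15 ± 0.96 CPM in ventricles (0.62, adjusted P = 0.0494), and 5.15 ± 0.94 against 7.93 ± 1.6 CPM in atria (0.62, adjusted P = 0.0567). By edgeR, 0 of the 19 genes passed the interaction test, beside 1.38% of all genes, and 4 were under 0.05 before adjustment, beside 2253 of 18327, so a difference between chambers in these changes was not shown.

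**Figure D5:**
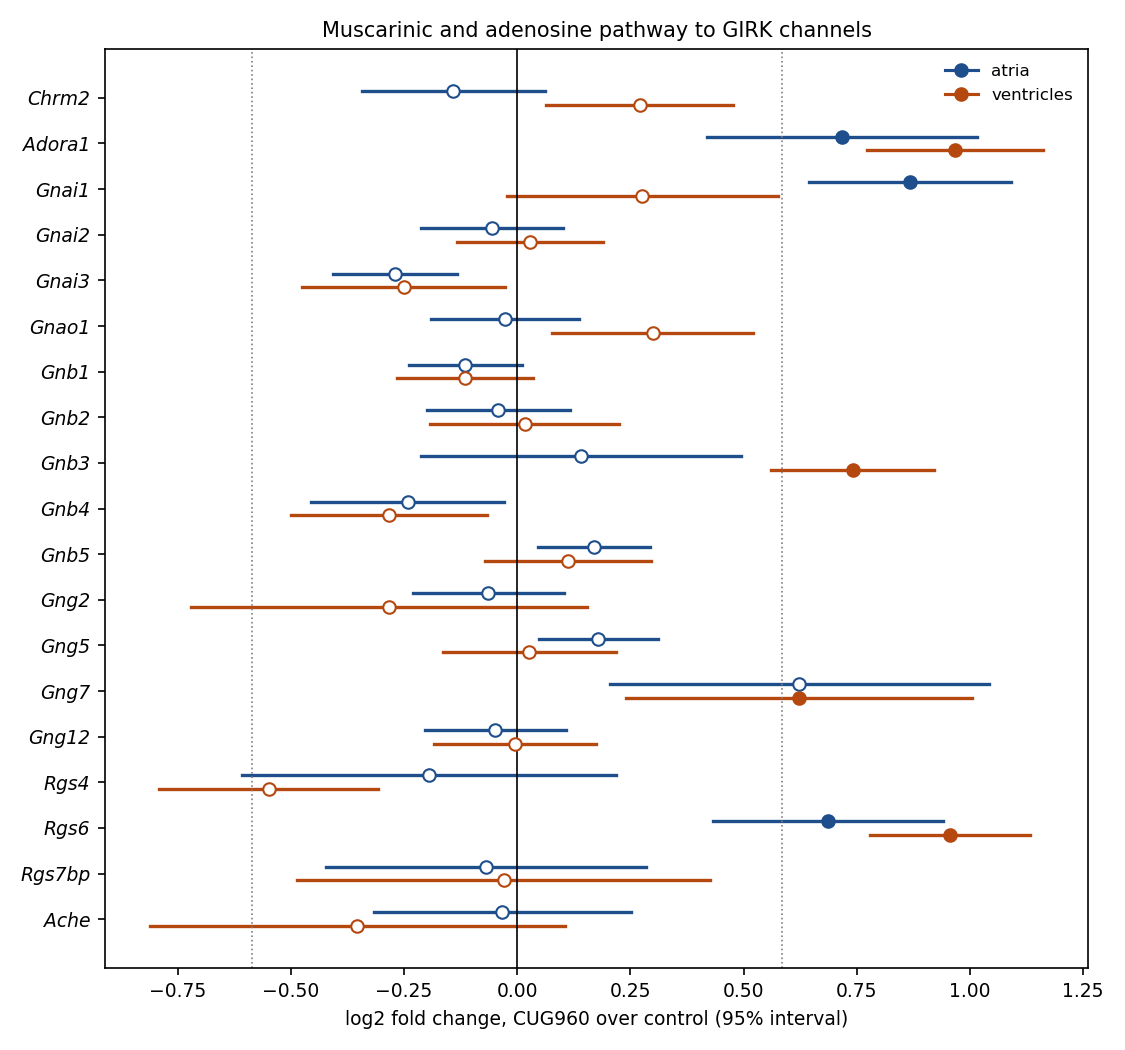
Log2 fold change of CUG960 over control (x axis) in atria and in ventricles for the 19 tested genes of the receptor and G protein list (y axis); lines are 95% intervals, filled points passed both thresholds, and dotted lines mark the fold limit of 1.5. Adora1 and Rgs6 are filled in both chambers.

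The classical inward rectifiers of the Kir2 family, Kcnj2 (Kir2.1, chr11:111066164-111076821) and Kcnj12 (Kir2.2, chr11:61022564-61071131), carry the current that anchors the resting potential. Neither was called between genotypes. Kcnj2 was 41.1, 50.9 and 44.7 CPM in control atria and 29.2, 32.8 and 43.0 CPM in CUG960 atria, where V123 lay among the controls. In ventricles it was 73.4, 47.5 and 50.2 CPM in controls and 40.2, 37.0 and 44.1 CPM in CUG960 mice, and here the ranges did not overlap. Its log2 fold changes were −0.38 ± 0.14 in atria (adjusted P = 0.11) and −0.49 ± 0.15 in ventricles (adjusted P = 0.0763). Leaving out each mouse gave −0.61 to −0.27 in ventricles with adjusted P values of 0.049 to 0.218, the only call being without V333 and the smallest value without V327, the highest control. Over the other alternative settings, including DESeq2 and raw totals, adjusted P values were 0.0387 to 0.161 in atria and 0.00752 to 0.129 in ventricles. The ventricular log2 fold changes were then −0.65 to −0.39.

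Kcnj12 was flatter, with 32.6 to 41.3 CPM in control atria, 35.3 to 39.0 CPM in CUG960 atria, 30.6 to 36.3 CPM in control ventricles and 33.1 to 34.8 CPM in CUG960 ventricles. Its 95% intervals between genotypes were −0.251 to 0.177 in atria and −0.135 to 0.256 in ventricles on the log2 scale, so a change of 1.5-fold lies outside both. In the summed level per length of Kcnj2 and Kcnj12, which leaves out other Kir2 genes, the Kcnj2 share was 38.0% ± 2.3 in control atria. In CUG960 atria it was 32.3% ± 3.1 (exact permutation p = 0.2). In ventricles it was 46.5% ± 7.1 in control and 37.5% ± 2.7 in CUG960 mice, without overlap (exact permutation p = 0.1, adjusted P = 0.171).

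Endothelial markers moved in the same direction as Kcnj2, which endothelial cells also express. The 7 markers summed to 928, 994 and 795 CPM in control atria and 636, 754 and 681 CPM in CUG960 atria, and to 893, 732.5 and 841 CPM in control ventricles and 624.5, 596 and 635 CPM in CUG960 ventricles. Pecam1 had the highest mean of them over the 12 libraries, although Cdh5 was higher in each ventricle library. Vwf (264 and 314 CPM) was also above Pecam1 (236 and 247 CPM) in the control atria of V327 and V333. None was at 0 in a group, and 2 of 7 were called lower in atria (beside 5.49% of all genes called) and 0 of 7 in ventricles (beside 4.75%). Without the fold limit, 4 and 3 of the 7 were lower. Their part in the Kcnj2 values was not tested.

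Kcnj11 (chr7:46093953-46100764) encodes Kir6.2, the pore of the ATP-sensitive channel. It was 127, 135 and 132 CPM in control atria and 145, 142 and 147 CPM in CUG960 atria. Control ventricles had 137, 128 and 127 CPM, and CUG960 ventricles 147, 181 and 171 CPM, so CUG960 mice lay above controls in both chambers. The log2 fold change was 0.14 ± 0.055 in atria (adjusted P = 0.13) and 0.35 ± 0.089 in ventricles (adjusted P = 0.0383), the latter with a range of adjusted P from 0.0222 to 0.114 when each mouse was left out. In control hearts, Kcnj11 differed by 0.0040 ± 0.061 between chambers, with a 95% interval of −0.135 to 0.143 under TMM scaling.

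Neither regulatory subunit of this channel was called between genotypes, although each was under 0.05 before adjustment in atria and Abcc9 also in ventricles. Abcc9 (SUR2) was 62.5 ± 5.7 CPM in control and 50.1 ± 9.1 CPM in CUG960 atria, and 339 ± 36 and 269 ± 41 CPM in ventricles (log2 fold changes −0.32 and −0.33, adjusted P = 0.128 and 0.121). Abcc8 (SUR1), named after its values were seen, was 102 ± 3.0 against 85.7 ± 6.9 CPM in atria (−0.26, adjusted P = 0.0474) and 41.8 ± 2.9 against 37.4 ± 2.4 CPM in ventricles (−0.16, adjusted P = 0.274). The atrial level of Abcc8 and the ventricular level of Abcc9 were each higher than in the other chamber. Both chamber differences were called in both genotypes, beside 34.9% of all genes in control and 33.6% in CUG960 hearts.

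Among 10 further inward rectifier genes, 5 were tested in each chamber and none was called between genotypes, with 1 in atria and 2 in ventricles under 0.05 before adjustment. The most abundant, Kcnj8 (Kir6.1), was 34.9 ± 1.0 CPM in control and 26.5 ± 0.55 CPM in CUG960 ventricles (log2 fold change −0.39 ± 0.073, adjusted P = 0.0108), and 8.55 ± 0.46 against 8.20 ± 0.99 CPM in atria (adjusted P = 0.745). Pericytes are rich in Kcnj8 and Abcc9, and Rgs5, the most abundant of 8 smooth muscle and pericyte markers in each ventricle library, was 467, 497 and 502 CPM in control and 363, 310 and 374.5 CPM in CUG960 ventricles. The 8 markers summed to 876, 808 and 877 CPM in control ventricles and 671, 699 and 651.5 CPM in CUG960 ventricles, none was at 0 in a group, and 2 of 8 were called lower, beside 4.75% of all genes called. In atria the sums were 475, 382.5 and 389 CPM in controls and 401, 342 and 563 CPM in CUG960 mice, and 1 of 8 was called, higher, beside 5.49% of all genes. Without the fold limit, 3 of the 8 were lower in atria and 1 was higher, with a list median of −0.37 in log2 fold change. The part of these cells in the values of Kcnj8 and Abcc9 was not tested.

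Of the two-pore channels, Kcnk3 (TASK-1, chr5:30588170-30625271) encodes a background potassium channel, and it was the most abundant of the 10 per length in ventricles. It was 267, 247 and 253 CPM in control atria and 207, 202 and 223 CPM in CUG960 atria, with no overlap. Ventricles had 238, 236 and 236 CPM in controls and 206, 227 and 213 CPM in CUG960 mice, also without overlap. Kcnk3 fell by 0.28 ± 0.064 on the log2 scale in atria (adjusted P = 0.0252), and its log2 fold change was −0.14 ± 0.071 in ventricles (adjusted P = 0.269). The fold change in atria was 1.21, under the limit, and without V120 the adjusted P value was 0.0897.

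Kcnk1 (TWIK-1, chr8:125995170-126030685), a two-pore channel with weak inward rectification, had the largest genotype difference of the 10 in ventricles, and the lowest level per length in every group but CUG960 ventricles. Its counts are small, so they are given as such, with CPM beside them. Control atria had 12, 3 and 21 counts (0.0786, 0.0172 and 0.134 CPM) and CUG960 atria 7, 15 and 18 counts (0.0489, 0.0964 and 0.132 CPM). In ventricles, controls had 9, 21 and 32 counts (0.0813, 0.199 and 0.286 CPM) and CUG960 mice 120, 200 and 126 counts (0.823, 1.45 and 1.01 CPM). Every CUG960 ventricle thus exceeded every other library, by more than 2-fold in CPM.

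The ventricular log2 fold change of Kcnk1 was 2.53 ± 0.41 (SE), or 5.76-fold, with a 95% interval of 1.6 to 3.46 and an adjusted P value of 0.00633. Leaving out each mouse gave 2.17 to 2.96 with adjusted P values of 0.00711 to 0.0329. In atria it was 0.28 ± 0.66 (adjusted P = 0.815), and the interval of −1.24 to 1.81 shows how little the atrial counts can resolve. Between chambers of CUG960 hearts, the log2 fold change of atria over ventricles was −3.57 ± 0.38 (adjusted P = 5.46e-05). The interaction estimate was −2.24 ± 0.83 (adjusted P = 0.275), so the difference between chambers in the genotype effect was not significant after adjustment.

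The promoter window of Kcnk1 is shown because this gene had the largest genotype difference of the 10 in ventricles. It spans chr8:125994852-125995091 on the plus strand (RefSeq, GRCm38.p6, 250 to 11 bases before the RefSeq start, 5′ to 3′). Its sense was taken from the strand in the RefSeq table and was not found by the match to transcript sequence that oriented the windows of Kcnj3 and Kcnj5, and the GENCODE gene starts further downstream, at 125995170.
Kcnk1: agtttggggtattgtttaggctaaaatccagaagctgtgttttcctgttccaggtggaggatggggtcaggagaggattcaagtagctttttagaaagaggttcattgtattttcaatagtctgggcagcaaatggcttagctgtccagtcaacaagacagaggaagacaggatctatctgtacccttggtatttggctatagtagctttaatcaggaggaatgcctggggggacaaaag
GC content was 44.2%. None of the 4 motifs above has its letters in this window, hence no capitals.

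Of 12 other two-pore genes, 4 were tested and 0 called between genotypes in either chamber, beside 5.49% and 4.75% of all genes. Kcnk6 (TWIK-2), which had the highest mean over the 4 groups although Kcnk2 was higher in CUG960 ventricles, was 5.92 ± 1.0 against 5.57 ± 0.24 CPM in atria and 4.37 ± 0.48 against 3.73 ± 0.39 CPM in ventricles (edgeR, adjusted P = 0.709 and 0.333), and 0 of the 4 were under 0.05 before adjustment. The 9 genes for anchoring and trafficking of Kir2 and TASK channels had none called either. The most abundant of them, Ywhaz, a 14-3-3 protein that promotes surface transport of TASK channels, had a log2 fold change of −0.083 in atria (adjusted P = 0.378) and −0.13 in ventricles (adjusted P = 0.278). In each chamber, 3 of the 9 were under 0.05 before adjustment, as were 5337 of 17650 genes in atria and 4342 of 16909 in ventricles, and without reaching the fold limit Lin7c fell in both (−0.35 and −0.31) and S100a10 in ventricles (−0.37), both named after their values were seen.

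The SK genes Kcnn1 (SK1, chr8:70842049-70863258) and Kcnn3 (SK3, chr3:89520164-89675132) differed in pattern. Kcnn1 was 11.1, 10.9 and 11.5 CPM in control atria and 15.3, 14.7 and 16.8 CPM in CUG960 atria, well apart. In ventricles, 13.0, 13.1 and 12.6 CPM in controls overlapped with 14.1, 16.3 and 12.5 CPM in CUG960 mice, where V123 was low. It rose in atria by 0.48 ± 0.076 on the log2 scale (adjusted P = 0.00586, fold change 1.40), and its ventricular log2 fold change was 0.15 ± 0.11 (adjusted P = 0.44). The interaction estimate was 0.34 ± 0.13 (adjusted P = 0.318).

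Kcnn3 had 1.33, 1.69 and 1.80 CPM in control atria and 1.19, 1.22 and 1.18 CPM in CUG960 atria, below every control. Ventricles held 3.05, 2.36 and 3.96 CPM in controls and 2.75, 3.10 and 4.12 CPM in CUG960 mice, with overlap. Log2 fold changes between genotypes were −0.43 ± 0.16 in atria (adjusted P = 0.119) and 0.090 ± 0.22 in ventricles (adjusted P = 0.836). The log2 fold change of atria over ventricles was −0.96 ± 0.21 in control hearts (adjusted P = 0.00522) and −1.49 ± 0.18 in CUG960 hearts (adjusted P = 1.12e-04). The call in control hearts was lost without mouse V327, where the log2 fold change was −0.86 and the adjusted P value 0.0502. Kcnn3 is also known from endothelial cells, whose markers are given above, and their part in the atrial values was not tested.

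Kcnn2 (SK2, chr18:45268860-45686024) was the only one of the 10 called in both chambers. Its product is the SK subunit most often linked to repolarization of atrial myocytes. Control atria had 6.04, 5.96 and 6.08 CPM and CUG960 atria 13.6, 10.9 and 12 CPM. Control ventricles had 3.46, 5.77 and 5.43 CPM and CUG960 ventricles 11.2, 8.55 and 8.56 CPM. The ranges of the genotypes did not overlap in either chamber, and V119 was the highest CUG960 mouse in both.

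In atria, Kcnn2 rose by a log2 fold change of 1.01 ± 0.098 (SE), or 2.02-fold, with a 95% interval of 0.789 to 1.24 and an adjusted P value of 7.32e-04. In ventricles, it rose by 0.95 ± 0.19, or 1.93-fold, with an interval of 0.513 to 1.38 and an adjusted P value of 0.0166. Leaving out each mouse gave 0.93 to 1.09 in atria, with every adjusted P value at or under 0.00486. In ventricles the range was 0.75 to 1.09, and the call was lost without V119 (0.81, adjusted P = 0.0537). The interaction estimate of 0.066 ± 0.24 (adjusted P = 0.95, interval −0.447 to 0.580) leaves room for a chamber difference of either sign. Between chambers, Kcnn2 was higher in atria of CUG960 hearts by 0.36 ± 0.13 (adjusted P = 0.0452), a value of 0.0772 when all 12 libraries shared a fit, and differed by 0.30 ± 0.18 in control hearts (adjusted P = 0.194).

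As a share of summed SK transcript per length, Kcnn2 made up 23.8% ± 0.42 in control and 31.7% ± 2.5 in CUG960 atria, and 17.3% ± 3.8 and 26.9% ± 4.0 in ventricles, with no overlap in either chamber (exact permutation p = 0.1 in each, the smallest possible, adjusted P = 0.171). Kcnn1 remained the larger part, with 71.7% and 66.1% in atria and 74.8% and 66.2% in ventricles. The share depends on the length used. With the longest annotated transcript of each gene in place of merged exons, Kcnn2 was at 35.7% ± 0.58 and 45.2% ± 2.8 in atria and at 26.9% ± 5.35 and 39.4% ± 4.8 in ventricles. The summed SK level was 3.40 ± 0.092 CPM per kb in control and 5.15 ± 0.32 CPM per kb in CUG960 atria, and 3.77 ± 0.15 and 4.69 ± 0.39 CPM per kb in ventricles, again without overlap (exact permutation p = 0.1 in each).

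Of 13 calcium sensors and complex partners of SK channels, 1 was called in atria (7.69%, beside 5.49% of all genes) and 0 in ventricles (beside 4.75%), where 4 were under 0.05 before adjustment by edgeR. Cacna1d, the CaV1.3 calcium channel that supplies calcium to SK channels in atrial and nodal cells, was 13.8 ± 3.5 CPM in control and 29.6 ± 2.4 CPM in CUG960 atria (log2 fold change 1.10 ± 0.17, adjusted P = 0.005). In ventricles it was 2.24 ± 0.67 against 3.73 ± 0.35 CPM (0.74 ± 0.21, adjusted P = 0.0528). Calmodulin is the calcium sensor of the channel, and Calm2, which encodes it, fell by 0.39 on the log2 scale in ventricles (adjusted P = 0.029). Flna, an actin-binding protein, fell by 0.56 in atria (adjusted P = 0.00144), and both changes, named after their values were seen, were under the fold limit. Of 5 other calcium-activated potassium channel genes, 3 were tested in atria and 5 in ventricles with none called, 1 and 2 being under 0.05 before adjustment, and Kcnmb1, which had the highest mean over the 4 groups although Kcnn4 was higher in atria, had log2 fold changes of −0.29 and −0.70 (edgeR, adjusted P = 0.62 and 0.0905).

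For the 2 genes called between genotypes, the genes with the most similar pattern were sought among 13103 genes by Pearson's r of log2 CPM over the 12 libraries, which share 6 mice and 4 groups. Nearest to Kcnn2 were Spop (r = 0.974), a ubiquitin ligase adaptor, 4931406C07Rik (r = 0.957) and Cyp4f16 (r = 0.952), a cytochrome P450. Spop was 294 ± 1.3 CPM in control and 339 ± 6.6 CPM in CUG960 atria, and 272 ± 12 and 329.5 ± 18 CPM in ventricles. Cyp4f16 was 4.75 ± 0.23 and 9.25 ± 0.88 CPM in atria and 3.32 ± 0.44 and 7.59 ± 0.28 CPM in ventricles. Nearest to Kcnk1 were Ddx1 (r = 0.940), an RNA helicase, Arhgap44 (r = 0.930), a GTPase-activating protein, and Ulbp1 (r = 0.925). Arhgap44 was 40.9 ± 2.3 CPM in control and 53.6 ± 0.55 CPM in CUG960 ventricles, with 34.9 ± 1.7 and 38.4 ± 2.2 CPM in atria. These correlations are descriptions over few groups and carry no test.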

How the data were processed

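Poly(A) RNA of atria and ventricles was sequenced with stranded libraries. Read pairs were mapped by the authors to mm10 (GRCm38), and an expected count per gene was estimated with RSEM 1.3.1. They deposited these expected counts in a single table, with no scaling or filter. The counts were rounded to whole numbers before use here. Whether counting used the strand is not given in the sources used here, and Kcnj3, Kcnk1, Kcnk3, Kcnn1 and Kcnn2 overlap genes on the opposite strand, whose reads could then not be told apart.

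Depth per library was 116127966 to 160676189 counts. Genes were kept by filterByExpr, scaled by TMM and tested with edgeR 4.0.16 in R 4.3.3 (glmQLFit, glmQLFTest), each comparison on its own libraries and with Benjamini-Hochberg adjustment over all genes tested. The interaction was fitted over 12 libraries without a fold limit. CPM used TMM library sizes over 12 libraries, and lengths were merged exons of GENCODE M21. Log2 CPM used a prior count of 2. SE of log2 fold changes were derived from the F statistic. DESeq2 1.42.0, other scalings, other filters, raw library totals, a replicate block by mouse, and each mouse left out were alternatives; the script was tested on simulated data.

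All members were named. Of other lists, the genes called between genotypes were named, or else the most abundant. Members and lists were chosen with earlier results of these data known. Atria and ventricles came from the same mice by their labels. Deviations from group means correlated across genes at r of 0.0302 to 0.135 between chambers of the same mouse. Between chambers of different mice of the same genotype, r was −0.141 to 0.0536. Centering on means of such small groups pushes the latter values down, so the contrast of these ranges is a description only. Replicates were separate mice. Markers of other cell types were read as summed CPM. Results for some genes of the fixed lists are not reported here.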

Additional observations from a re-analysis of the deposited data

How the results depend on the processing

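Counts of the 10 genes called were within 1.5 times of the main count under most settings. In atria, the count of 1 became 0 with a log2 limit of 1.5 and 4 with no fold limit, and was 1 with each mouse left out. In ventricles, the count of 2 became 1 with a minimum of 10 counts in every library, where Kcnk1 was not tested, 1 with the log2 limit of 1.5 and 4 with no fold limit, and it was 1 to 3 with a mouse left out. With a mouse left out, the count was 2 to 3 in control hearts between chambers, 4 in CUG960 hearts and 0 for the interaction. Taking the mouse as a replicate block changed no call of the 10 genes, with 3 and 4 called between chambers and 0 in the interaction, although Kcnn1 in control hearts then had an adjusted P value of 0.0648.

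Directions that turned belonged to log2 fold changes that were not called. With raw library totals, chosen after seeing the data, these were Kcnj12 between genotypes in atria (0.0010) and, between chambers, Kcnj2 (0.13) and Kcnn1 (0.24) in control hearts and Kcnj2 (0.17), Kcnj11 (0.18) and Kcnk3 (0.35) in CUG960 hearts. Of these, Kcnn1 and Kcnk3 had adjusted P values under 0.05 on the atrial side (edgeR, 0.0164 and 0.00267), below the fold limit. Raw totals also brought Kcnj5 in ventricles past the threshold (0.60, adjusted P = 0.0127), as leaving out V120 did (0.61, adjusted P = 0.022). Kcnj11 between chambers in control hearts was −0.0095 with RLE factors in edgeR and with DESeq2. With a mouse left out, the atrial log2 fold change ranged from −0.20 to 0.97 for Kcnk1 and from −0.14 to 0.037 for Kcnj12, and the ventricular one from −0.095 to 0.30 for Kcnn3. Between chambers it ranged from −0.029 to 0.060 for Kcnj11 in control hearts, and from −0.086 to 0.041 for Kcnk3 and −0.023 to 0.27 for Kcnn1 in CUG960 hearts. The interaction of Kcnn2 ranged from −0.091 to 0.26 and that of Kcnj2 from −0.18 to 0.31. The cause of these shifts was not tested.

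Over all genes, the interaction gave 253 calls by edgeR, 660 by DESeq2 and 74 to 131 with a mouse left out. A log2 limit of 1.5 left 216 of 969 calls in atria, 199 of 804 in ventricles, 2233 of 6098 in control and 2200 of 5900 in CUG960 hearts between chambers, and no fold limit gave 2573, 1680, 9726 and 9517. The order of the 10 levels was the same with longest transcripts and with raw totals. With 3 mice per group, intervals of some single genes are wide, and the atrial counts of Kcnk1 are low as well.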

Other observations

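The adipocyte marker list stood lower in CUG960 ventricles. Its 6 markers summed to 612.5, 639.9 and 500.3 CPM in control and 338, 388 and 422.5 CPM in CUG960 ventricles, nearly all of it Fabp4, and 3 of 5 tested were called lower, beside 4.75% of all genes called. Fabp4 is also known from capillary endothelium, whose markers are given above. The part of these cells in the channel values was not tested.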
